A study of Rattus norvegicus with 12 samples.

Results

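The 8 genes described here are Src, Fyn, Yes1, Lyn, Lck, Fgr and Blk, which encode tyrosine kinases of the Src family, and Csk, which encodes the kinase that restrains them. Every gene probe that carried one of these symbols on the array was taken. Each gene had 1 probe of 60 bases and each probe 1 spot per array, so the genes made up 8 of 26214 gene names and 8 of 30367 probes. The RefSeq accession of each probe (8 of 8) carried the same symbol in RefSeq. Lyn was included because the study had listed it among the genes that differed with exposure on these same arrays. Its difference is therefore given as a description, with no test. The study also measured Lyn by quantitative PCR in the same RNA samples. It named Lyn as a gene whose change on the arrays was not borne out by PCR.

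The arrays held RNA of neuron-enriched cerebellar cultures, prepared from Sprague-Dawley rats 1 day old and collected at 16 days in vitro (DIV). The 6 control cultures received dimethyl sulfoxide (DMSO, 0.001%), and the 6 ACE cultures received 1 µM acetamiprid, a neonicotinoid insecticide, in the same amount of DMSO, from day 2 onwards. Each replicate number was an independent culture experiment in which the pooled cells of several neonates of 1 litter were divided between the groups, so control and ACE arrays of a number form a pair that shares its litter. All cultures were kept in medium with serum at first and without serum later, and the label neuron-enriched leaves room for glia. Levels are given as log2 of the processed spot signal after quantile normalisation over the 12 arrays, and differences as ACE minus control on that scale, so that a difference of 1 is a doubling of the signal.

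Kinases of the Src family sit on the inner face of the cell membrane and pass signals from adhesion molecules, growth factor receptors and immune receptors to the cytoskeleton and to gene expression. They are held inactive when their C-terminal tyrosine is phosphorylated, which Csk does, and are released when phosphatases remove that phosphate. Src, Fyn and Yes1 are found in most cell types. In brain, Fyn phosphorylates N-methyl-D-aspartate receptor subunits, serves the Reelin pathway that guides neuronal positioning, and takes part in myelination by oligodendrocytes. Lyn, Fgr, Lck and Blk are best known from cells of the blood lineages, Lyn and Fgr from myeloid cells including microglia, Lck from T cells and Blk from B cells. Activity of these kinases is set mainly by phosphorylation, which an array of RNA does not measure.

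Related kinases share sequence, so the probes were compared with each other before their signals were read. Over all pairs of the 8 probes and that of the relative Frk (36 pairs, without gaps, at least 20 bases of overlap), the closest were Fyn with Yes1 and Lck with Blk, in stretches that encode the conserved kinase domain. They are shown 5′ to 3′ with the bases identical between the partners in capitals.
Fyn: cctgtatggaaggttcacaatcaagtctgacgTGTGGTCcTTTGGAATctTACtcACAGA
Yes1: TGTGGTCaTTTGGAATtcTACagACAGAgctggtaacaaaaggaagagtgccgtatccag
Lck: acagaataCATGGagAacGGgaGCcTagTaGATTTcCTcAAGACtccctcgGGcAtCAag
Blk: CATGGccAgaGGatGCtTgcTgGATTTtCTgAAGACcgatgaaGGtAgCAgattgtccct
The last bases of the Fyn probe matched the first bases of the Yes1 probe at 23 of 28 positions (82.1%), and Lck matched Blk at 29 of 52 (55.8%). The remaining 32 bases of each of Fyn and Yes1 lay outside the overlap. The Lyn probe, on which the results turn, had its best match with Frk, at 12 of 25 positions, and its first 30 bases are given to identify it.
Lyn: cattgtctacttcatgggaaggaagagtga
Per the file headers, the probes lay on rat build rn4. The Src probe was at chr3:148170443-148170502 on the plus strand, Fyn at chr20:43684080-43684139 (plus), Yes1 at chr9:112548371-112548430 (plus) and Lyn at chr5:17054504-17054563 (plus). Fgr was at chr5:152119800-152119859 (minus) and Csk at chr8:61381439-61381498 (minus). The Lck probe spanned 2108 bases (chr5:148713169-148715276, minus) and the Blk probe 1087 bases (chr15:42649987-42651073, minus), more than their own length of 60, so each joins separate stretches of the genome as a probe across an exon junction does. An annotation of rn4 was not used here, so the exon or untranslated region of the other probes is not given.

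Signal well above background was found on all 12 arrays for 5 of the 8 genes (Src, Fyn, Yes1, Fgr and Csk). Lyn was above background on 11 arrays, Lck on 10 and Blk on 3. The image software had marked 3 of the 96 member spots (3.12%) as non-uniform, meaning that pixels within the spot varied more than its model allows, against 0.788% of all gene spots marked as outliers. These were 1 spot of Lyn and 2 of Lck, and they were set to missing. A low-signal filter left 7 of the 8 genes, without Blk.

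Of the 6 members tested, which leaves out Lyn and the filtered Blk, 0 passed an adjusted p of 0.05 for control versus ACE in limma, and the array as a whole had 0 such probes (of 23796, 0%). With the replicate as a random block, 5 probes of the array passed, and 0 of these 6. Of the same 6 members, 0 also reached an unadjusted p of 0.05, against 16.6% of all filtered probes. Leaving out 1 replicate changed this for a pair of them in limma: Src had an unadjusted p of 0.0383 (difference 0.086) without replicate 1 and Fgr 0.0337 (difference 0.15) without replicate 4. By the exact signed-rank test, which needs all 6 pairs to move the same way, 0 of these 6 passed, against 11.6% of all probes (Lck, with 4 complete pairs, could not). Their limma adjusted p-values ran from 0.369 to 0.955. By size, 0 of the 7 filtered members reached a 1.5-fold mean change, as 1.72% of all filtered probes did (0.664% upward). The median difference over the 7 filtered members was 0.018, and over all filtered probes -0.00499.

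Lyn, a kinase that both relays and damps signals of immune receptors, was higher in ACE in each of the 5 pairs that could be measured, with a mean below 1.5-fold. Its level in the control cultures of replicates 1 to 6 was 3.24, 4.43, 5.03, 4.42, 5.26 and 4.84. In ACE it was 3.78, 4.99, 5.13, 5.93 and 5.35 in replicates 1, 2, 3, 5 and 6, with replicate 4 missing. Replicate 1 was the lowest and replicate 5 the highest in both groups, and the groups overlapped widely. The pair differences were 0.54, 0.56, 0.094, 0.68 and 0.52, of which 1 exceeded 1.5-fold (0.585). Their mean was 0.48 ± 0.089 (SE, n = 5 pairs), a 1.39-fold signal. Over all filtered probes, 4.77% were higher in every complete pair, but 23580 of these 23796 probes had 6 pairs and Lyn had 5, and Lyn was chosen on this contrast, so nothing is read from that share. The spot of control replicate 4 was not well above background. Of the pairs scanned together on 1 day (4 to 6), those that could be measured gave 0.68 and 0.52.

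The size of the Lyn difference turned on the single spot of ACE replicate 4. Its processed signal was 286 intensity units, whereas the Lyn spot gave 12.3 to 49 units on the other 11 arrays. The SD of its pixels was 0.568 of their mean, against at most 0.261 on the other arrays. Its mean pixel was 345 and its median pixel 323. With this spot kept, ACE replicate 4 had a level of 8.65 and its pair differed by 4.24, more than the other 5 pairs summed (2.38). The mean difference of Lyn then became 1.1 ± 0.63 (SE, n = 6 pairs), a 2.15-fold signal. This SE is the SD of the pair differences over the root of n, whereas the other SEs given here are those of limma, moderated over all probes. Lyn was then the 1 member past 1.5-fold, as were 1.97% of all probes (0.811% upward). All 6 pairs were then higher in ACE, as for 4.63% of all probes. In the deposited log2 table it was 1.12.

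The setting also moved the smaller difference seen without that spot. Shifting each array by its 75th percentile in place of quantile normalisation gave 0.30 for Lyn, and normexp background correction with an offset of 50 gave 0.17. Before any scaling between arrays, the processed signal of replicate 3 was lower in ACE (34.1) than in control (39.6). The direction of the mean was positive in all of these settings.

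**Figure D1:**
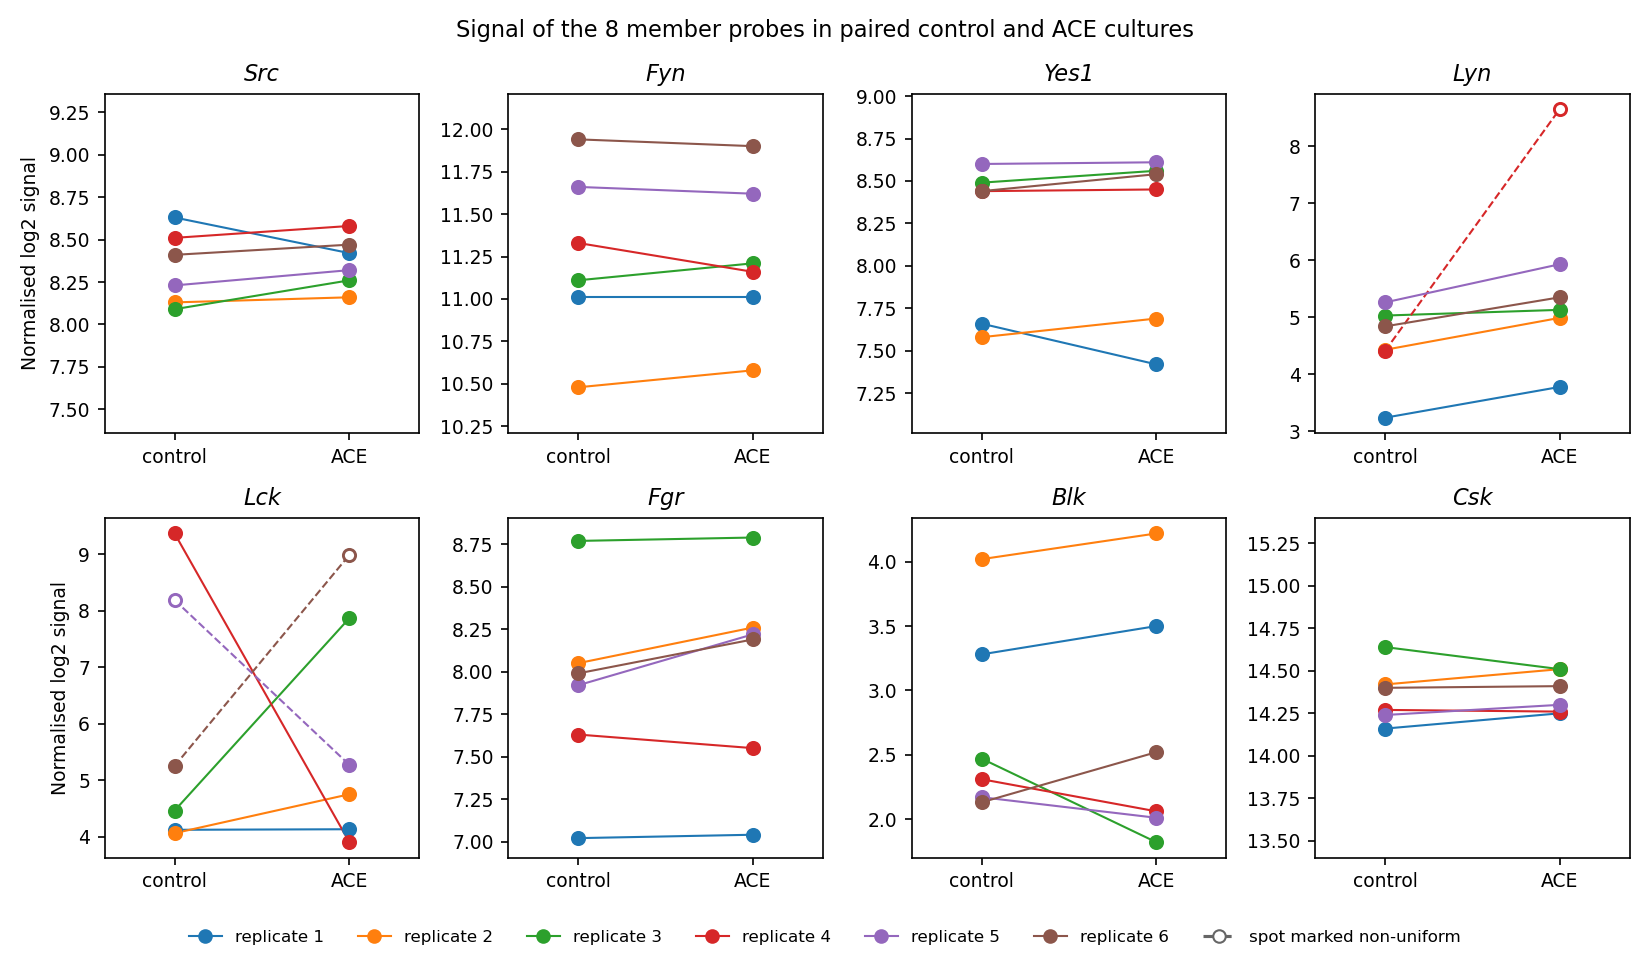
Normalised log2 signal (y axis) of the 8 member probes in control and ACE cultures (x axis), with 1 coloured line per pair and each panel on its own y range of at least 2 log2 units. Filled points were measured, and open points with dashed lines show the value of a spot marked non-uniform: Lyn at 8.65 in ACE replicate 4, and Lck at 8.19 in control replicate 5 and 8.99 in ACE replicate 6.

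Lck, the kinase that starts T cell receptor signalling, varied more within pairs than any shift between the groups. In control its level was 4.12, 4.06, 4.46, 9.37 and 5.25 in replicates 1, 2, 3, 4 and 6. In ACE it was 4.13, 4.75, 7.87, 3.90 and 5.28 in replicates 1 to 5. Each group thus had 1 high array and 4 lower ones, and the high arrays came from different replicates. The missing spots, both marked non-uniform, were high as well, at 8.19 in control replicate 5 and 8.99 in ACE replicate 6. The pair differences were 0.013, 0.69, 3.42 and -5.47, with a mean of -0.34 ± 1.52 (SE, n = 4 pairs, limma adjusted p = 0.929) and a 95% interval from -4.39 to 3.71. The mean was 1.37 without replicate 4 and -1.59 without replicate 3, so no direction can be given.

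The high Lck spots differed in their pixels. The marked spots had a pixel SD of 0.562 and 0.618 of the mean, whereas the unmarked high spots had 0.325 (control replicate 4) and 0.233 (ACE replicate 3). Of the 8 genes of the T cell list, 3 passed the filter. Cd3d, a chain of the T cell receptor complex, and Thy1, which neurons also express, were above background on 12 arrays and Cd8a on 8, whereas Cd3g was on 4, Cd2 on 3, Cd5 on 2, and Cd3e and Cd28 on 0. Whether the high Lck spots reflect RNA of the culture or the spot itself was not tested.

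**Figure D2:**
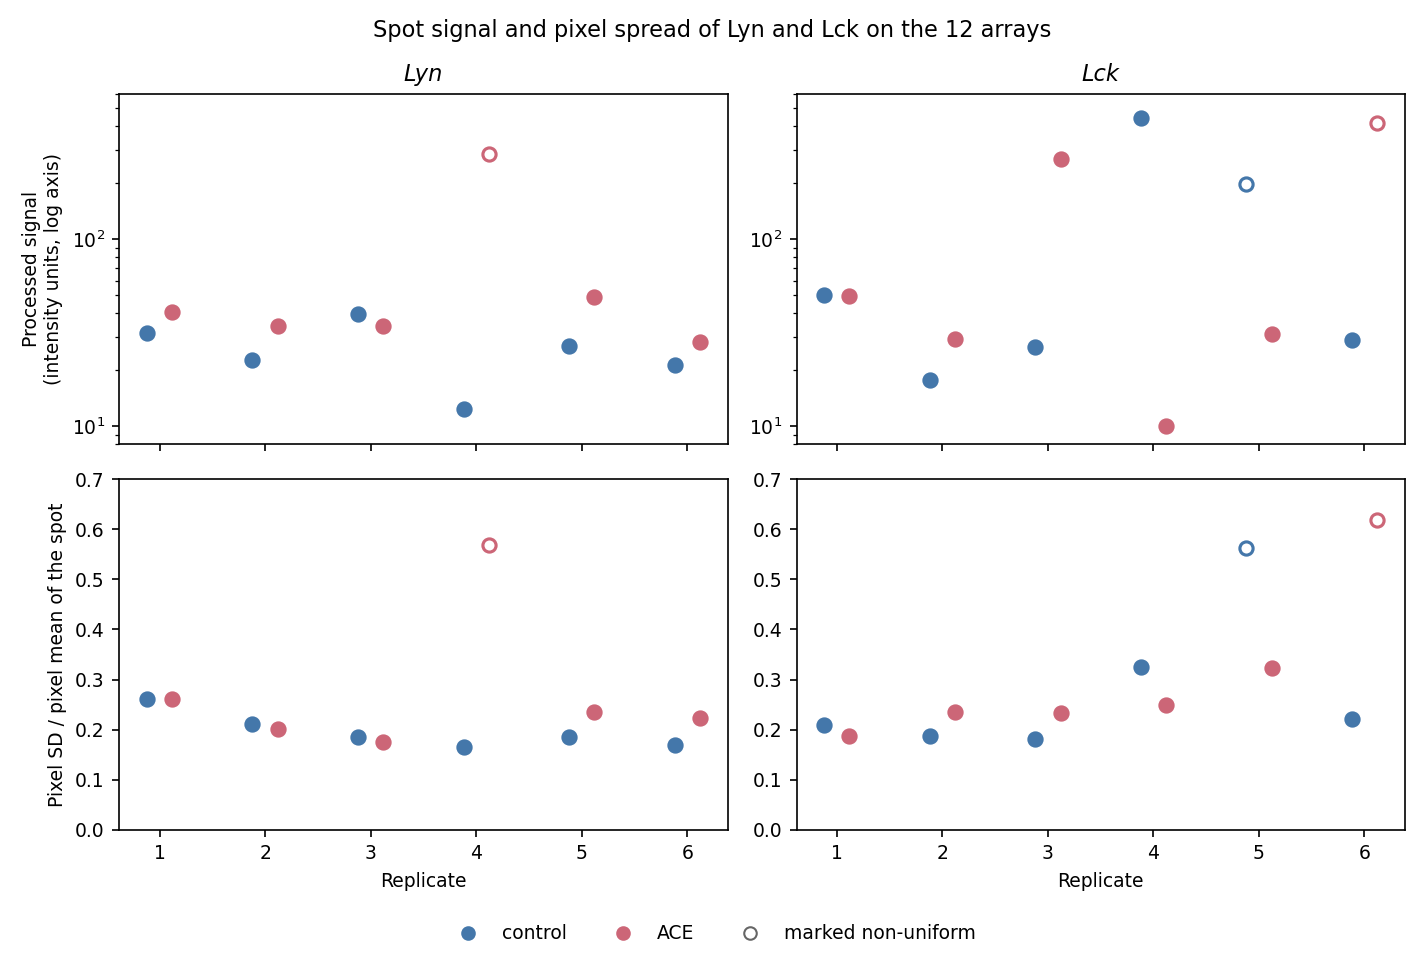
Processed signal of the Lyn and Lck spots (upper panels, intensity units on a log axis) and the SD of the spot's pixels divided by their mean (lower panels) by replicate, for control (blue) and ACE (red). Open points are the 3 spots marked non-uniform, with pixel ratios of 0.562 to 0.618, while all filled points lie at 0.325 or lower.

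Src, Fyn and Yes1, the broadly expressed kinases, differed little with ACE and more from culture to culture. For Src the level in control was 8.63, 8.13, 8.09, 8.51, 8.23 and 8.41, and in ACE 8.42, 8.16, 8.26, 8.58, 8.32 and 8.47 in replicates 1 to 6. The Src difference was 0.036 ± 0.051 (SE, n = 6 pairs, limma adjusted p = 0.737), with a 95% interval from -0.086 to 0.16. It was positive in 5 of 6 pairs, and replicate 1 was the exception at -0.21.

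Fyn spanned 10.48 to 11.94 in control and 10.58 to 11.90 in ACE, with replicate 2 the lowest and replicate 6 the highest in both groups. Its 6 control levels were 11.01, 10.48, 11.11, 11.33, 11.66 and 11.94, and its ACE levels 11.01, 10.58, 11.21, 11.16, 11.62 and 11.90. The pairs stayed close together while the cultures did not. The difference was -0.0058 ± 0.042 (SE, n = 6 pairs, limma adjusted p = 0.955), with a 95% interval from -0.11 to 0.10, or 0.929- to 1.07-fold. The SD between cultures was 4.75 times the SD of the pair differences.

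Yes1 separated the cultures into lower and higher ones, and ACE followed control in each. Control levels were 7.66 and 7.58 in replicates 1 and 2 and 8.49, 8.44, 8.60 and 8.44 in replicates 3 to 6. ACE levels were 7.42 and 7.69, then 8.56, 8.45, 8.61 and 8.54. The difference was 0.0095 ± 0.051 (SE, n = 6 pairs, limma adjusted p = 0.940), with a 95% interval from -0.11 to 0.13. The intervals of these 3 kinases exclude a change of 1.5-fold in either direction at this number of arrays, although smaller changes within them cannot be told from 0.

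Fgr, a kinase of neutrophils, macrophages and microglia, had the largest difference of the tested members that were above background on every array. Control levels were 7.02, 8.05, 8.77, 7.63, 7.92 and 7.99, and ACE levels 7.04, 8.26, 8.79, 7.55, 8.22 and 8.19. Replicate 1 was the lowest and replicate 3 the highest in both groups. ACE was higher in 5 of 6 pairs, with a mean of 0.11 ± 0.056 (SE, n = 6 pairs), 1.08-fold, and a 95% interval from -0.024 to 0.25. Fgr did not pass the limma test (adjusted p = 0.369, and 0.0916 before adjustment in limma). The difference was 0.15 without replicate 4, the 1 pair that was lower, 0.073 without replicate 5, the pair with the largest difference, and 0.067 with arrays shifted by their 75th percentile.

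Blk, the B cell member, had little signal. It was above background on 1 control array and 2 ACE arrays, those of replicate 1 in both groups and of replicate 2 in ACE. Its levels were 3.28, 4.02, 2.47, 2.31, 2.17 and 2.13 in control and 3.50, 4.22, 1.82, 2.06, 2.01 and 2.52 in ACE. Replicates 1 and 2 were thus the highest in both groups. The probe was under the filter, and when the filter was dropped Blk differed by -0.039 (unadjusted p = 0.793 in limma). Among the 6 genes of the B cell list, 2 passed the filter. Pax5 was above background on 12 arrays, while Cd79a was on 3, Cd22 on 2, Cd79b on 1 and Ms4a1, which encodes the B cell surface protein CD20, on 0.

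Csk, the inhibitor of the family, was the steadiest of the 8 genes between cultures. Its levels were 14.16, 14.42, 14.64, 14.27, 14.24 and 14.40 in control and 14.25, 14.51, 14.51, 14.26, 14.30 and 14.41 in ACE. The difference was 0.018 ± 0.037 (SE, n = 6 pairs, limma adjusted p = 0.824), with a 95% interval from -0.070 to 0.11, or 0.952- to 1.08-fold. The SD between cultures was 0.14 log2 for Csk and 0.18 for Src, against 0.48 to 0.59 for Fyn, Yes1 and Fgr and 0.79 for Lyn.

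**Figure D3:**
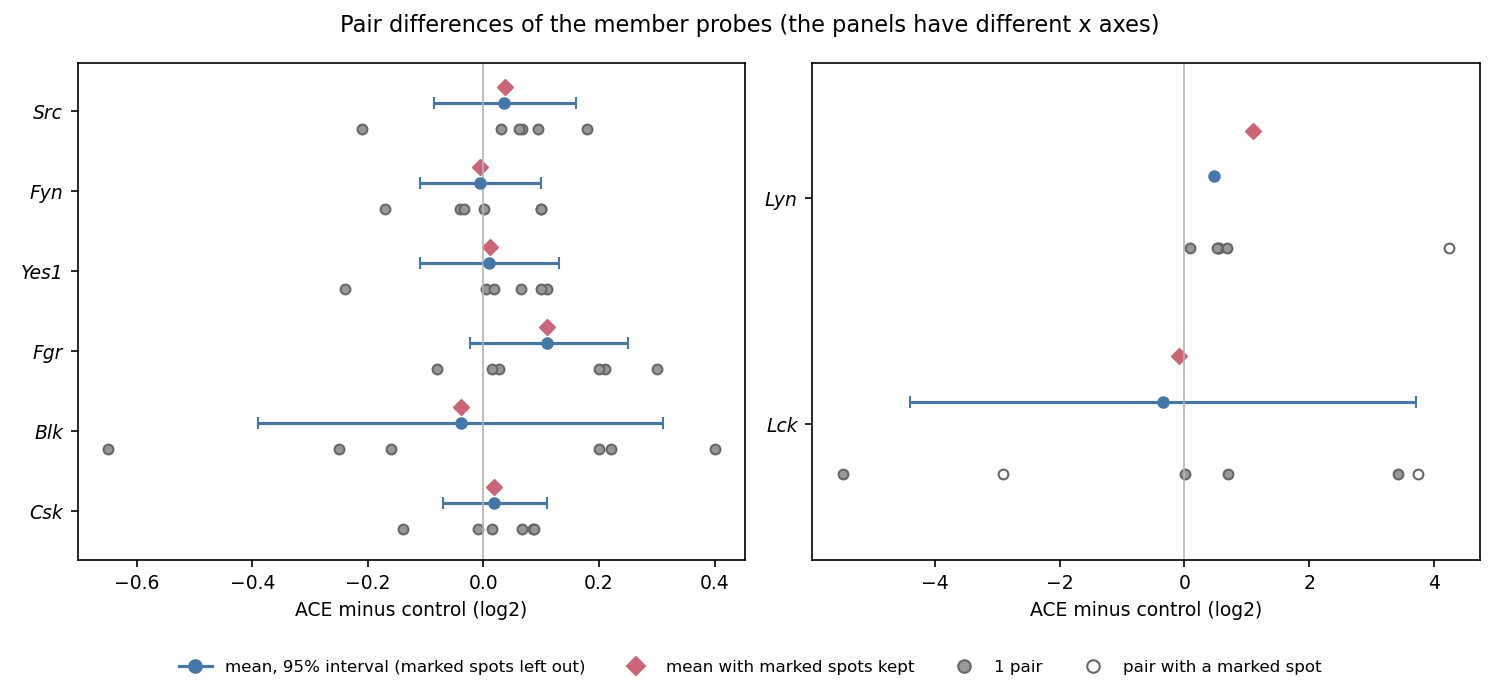
Pair differences of the 8 probes (ACE minus control, log2, x axis; the panels have different ranges). Grey points are pairs, open points pairs with a spot marked non-uniform, blue points the mean with its 95% interval (no interval for Lyn) and red diamonds the mean with marked spots kept, which for Lyn moves from 0.48 to 1.1.

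In 7 of the 8 genes the levels spread more between cultures than within pairs: the SD between cultures was 1.35 (Src) to 4.75 (Fyn) times that of the pair differences. The exception was Lck, at 0.336. Each pair also had a slide of its own, so the spread between cultures cannot be told apart from a spread between slides. Replicates 1, 2 and 3 were each scanned on a separate day, and replicates 4 to 6 together on 1 day. Replicate 1, the lowest for Lyn and Fgr in both groups, was also the 1 pair extracted with another version of the image software, and the part of that version in its values was not tested. In all pairs the control array lay at place 1 of its slide and the ACE array at place 3, so place and exposure cannot be told apart.

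Further relatives of the family were also on the array. Frk, a kinase of epithelial cells, differed by 0.12 ± 0.14 (SE, limma adjusted p = 0.690) and was higher in 3 of 6 pairs. Srms was below the filter.

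Genes that act on the family or receive its signals were described through a list of 89 symbols, of which 88 were on the array and 84 passed the filter with 119 probes. At an adjusted p of 0.05 in limma 0 of these probes passed. At an unadjusted p of 0.05, 12 were higher and 4 lower in ACE, together 13.4% of the list against 16.6% of all filtered probes (6.90% higher, 9.73% lower). By the exact signed-rank test 8 were higher and 4 lower, 10.1% of the list against 11.6% of all (4.72% higher, 6.86% lower). The list's median difference was 0.0256. The split by direction depended on the scaling: with arrays shifted by their 75th percentile, 6 list probes were higher and 13 lower, and over all probes 829 and 3376.

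By role, 3 of 16 probes of the phosphatases that act on the family or its targets had an unadjusted limma p under 0.05 in either direction (18.8%). The share was 6 of 37 for the receptors and surface partners (16.2%), 6 of 57 for the substrates and effectors (10.5%) and 1 of 7 for the inhibitors (14.3%). The share over all filtered probes was 16.6%.

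Among the probes that moved the same way in all 6 pairs, the largest differences upward were those of Fyb, Syk, Ptprj and Csf1r. Fyb, an adaptor that Fyn phosphorylates in blood cells, differed by 0.58 ± 0.22 (SE, n = 6 pairs). The study had listed this Fyb probe for acetamiprid on these same arrays, so its difference is a description, as for Lyn. The list counts above include it. Syk, the kinase that acts downstream of Lyn at immune receptors, differed by 0.47 ± 0.12 (limma adjusted p = 0.177), but its other probes gave -0.13 and -0.053. Ptprj, a receptor phosphatase that can activate the family, differed by 0.39 ± 0.049 (limma adjusted p = 0.141), and its other probe by 0.088. That adjusted p was the lowest on the array, but tied probes share the value, so it does not rank Ptprj first. Csf1r, the receptor for the growth factor on which microglia depend, differed by 0.28 ± 0.056 (adjusted p = 0.143), and its other probe by -0.018. The Syk and Ptprj probes named here were dim, with levels of 4.27 and 4.59 in control, and were above background on 9 and 11 arrays.

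Downward, the largest differences among the probes that moved the same way in all 6 pairs were those of Bcar1, Cttn, Socs3 and Cntn1. Bcar1, the docking protein p130Cas of focal adhesions, differed by -0.22 ± 0.068 (SE, n = 6 pairs, limma adjusted p = 0.216), and its other probe by 0.022. Cttn, the actin regulator cortactin, differed by -0.17 ± 0.086 (adjusted p = 0.365), while its other probes gave -0.066 and 0.21. Socs3, an inhibitor of cytokine signalling, differed by -0.16 ± 0.038 (adjusted p = 0.166) and Cntn1, the neuronal surface protein contactin, which signals through Fyn, by -0.10 ± 0.031 (adjusted p = 0.217). None of these probes passed the adjusted threshold.

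Of the 119 probes, 2 reached a 1.5-fold mean change (1.68%, against 1.72% of all filtered probes). They are named here after their values were seen. A probe of Erbb2, a growth factor receptor, differed by 1.43 ± 0.65 (SE, n = 6 pairs, limma adjusted p = 0.329), but other probes of that gene gave 0.021 and 0.028. The Erbb2 probe was dim, with a control level of 3.66, and above background on 8 of 12 arrays, as Socs1 was on 7 with a control level of 4.35. Socs1 differed by -0.61 ± 0.33 (adjusted p = 0.396) and was lower in 4 of 6 pairs. Grin2a, a subunit of the N-methyl-D-aspartate receptor that was likewise named after its value was seen, differed by -0.54 ± 0.13 (adjusted p = 0.168) and was lower in 5 of 6 pairs. The Grin2a probe was dim too, with a control level of 4.85, and above background on 10 arrays. Grin1, another subunit of that receptor, differed by 0.014 and was above background on 3. In the Reelin pathway, also looked at after the values were known, Reln differed by -0.028 ± 0.060 and Dab1, the adaptor that Fyn phosphorylates, by 0.10 ± 0.027 (adjusted p = 0.835 and 0.186).

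**Figure D4:**
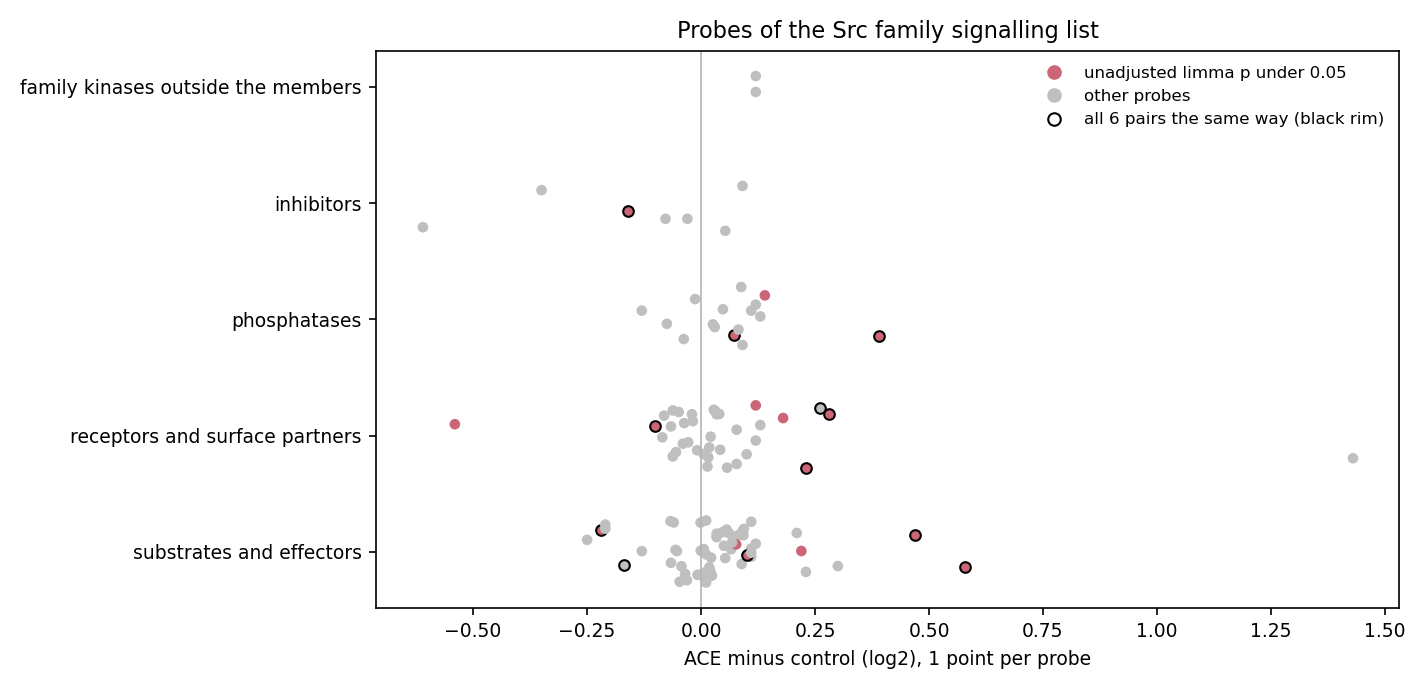
Differences (ACE minus control, log2, x axis) of the 119 probes of the signalling list, grouped by role, 1 point per probe (placed at random within its row). Red points had an unadjusted limma p under 0.05 (12 to the right and 4 to the left of 0) and points with a black rim moved the same way in all 6 pairs. The point at 1.43 is the Erbb2 probe.

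Because Lyn and Fgr are known from microglia, the markers of that cell type were set beside them. All 16 microglia markers were above background on every array. Their mean level per array was 12.53 to 12.94 in control and 12.64 to 12.99 in ACE, with a difference of 0.075 and an SD of 0.17 over the pairs, higher in 3 of 6. Without replicate 1 the difference was 0.0059. In a mixed culture, fewer cells of a type and less RNA per cell cannot be told apart. Csf1r stands in both this list and the signalling list, as Mag does in the oligodendrocyte and signalling lists.

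Over the 6 control arrays the microglia mean correlated with Lyn at r = 0.738 (Spearman's rho = 0.714, exact permutation p = 0.0889 and 0.136). The r was 0.694 for Fgr, 0.678 for Yes1, 0.633 for Fyn, 0.621 for Csk and -0.384 for Src. After adjustment over these 6 relations, 0 passed (adjusted p from exact permutation 0.225 to 0.447 for r and 0.408 to 0.419 for rho), and 0 had an unadjusted p under 0.05. Without replicates 1 and 6, which lay farthest from the median of the microglia mean, r was 0.688 for Lyn, 0.844 for Fgr, 0.592 for Yes1, 0.306 for Fyn, 0.685 for Csk and -0.452 for Src. Over the 6 ACE arrays, where Lyn had 1 value missing and was left out, r was between -0.231 and 0.358 for the other 5 genes, and 0 of 5 relations passed. These values rested on replicates 1 and 6, the farthest from the median here too: without them r was 0.951 for Fgr, 0.786 for Csk, 0.108 for Yes1, -0.0336 for Fyn and -0.605 for Src over 4 arrays. With shifts by the 75th percentile the control r of Lyn was lower, but 0 relations passed there as well.

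Other lists describe the cultures. Of 11 pan-neuronal genes on the array, 10 were above background on all arrays, and all 9 astrocyte and 12 oligodendrocyte genes on it were too. The mean difference with ACE was 0.070 for the pan-neuronal, -0.060 for the astrocyte, -0.0074 for the oligodendrocyte and -0.10 for the endothelial list. The oligodendrocyte value had no stable sign (0.0075 without replicate 4, 0.0046 without replicate 1 and 0.0028 in the deposited table), and the endothelial value was 0.066 without replicate 5. The astrocyte mean was lower in ACE in all 6 pairs. The skeletal muscle list, genes of a cell type not named in the labels, had the widest spread, 6.78 to 11.11 in control and 6.68 to 9.80 in ACE, with a difference of -1.19 that was -0.63 without replicate 2. Its part in the values of the kinases was not tested.

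The genes whose level followed the Lyn probe most closely over the 11 arrays with a Lyn value were Plscr1, which encodes a phospholipid scramblase (r = 0.973), Prkar2b, a regulatory subunit of protein kinase A (r = 0.964), and Rpl36a, a ribosomal protein (r = 0.960). They are the highest of all filtered probes with a symbol outside the 8 genes. The arrays share litters in pairs and 1 normalisation, so these correlations are a description.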

How the data were processed

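Gene expression was measured with 1-colour (Cy3) 60-base oligonucleotide arrays in 6 control and 6 ACE cultures. Other exposures of the study were left out. The intensities came from Agilent Feature Extraction, per the file headers in version 11.0.1.1 for replicate 1 and 11.5.1.1 for replicates 2 to 6, which subtracts background and applies no scaling across arrays. A second source was a deposited matrix of log2 values that the authors describe as quantile normalised with each probe's median taken as 0. This matrix correlated with the centred values computed here at 0.997 to 0.999 per array and served as an alternative.

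Control spots were left out, and spots marked as non-uniform or population outliers were set to missing. The log2 intensity was quantile normalised and the spots of a probe averaged. A probe was kept where 7 or more of the 12 arrays put it over their own 20th percentile and 4 or more pairs were complete, which left 23796 of 30367 probes. The 75th percentile of the signal was 1803 to 4384 units per array, 75.4 to 91.0% of gene spots were well above background, and 0 were saturated. The number of arrays limits the precision.

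Control and ACE were compared with limma 3.58.1 in R 4.3.3 (lmFit and eBayes, two-sided, replicate number as block), with Benjamini-Hochberg adjustment over all kept probes at 0.05, and with a signed-rank test over pairs (exact, two-sided). The block was used because each experiment divided 1 lot of cells between the groups. Deviations from the group means correlated at 0.449 to 0.912 for arrays sharing a number and at -0.439 to 0.390 otherwise. Alternatives were a 75th percentile shift, normexp background correction, the deposited matrix, no filter, a filter on signal above background, no block, a random block and leaving out each replicate. Keeping outlier spots, and pairs 4 to 6 alone, were added after seeing the data.

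The members, the signalling list and the marker lists were chosen with earlier results of these data known. Every member was described. From the signalling list, the 4 largest differences in each direction were named among probes that moved the same way in all 6 pairs and were above background on 3 or more arrays of the group with more signal. With Lyn, the 3 most correlated genes were named. Files were parsed by data.table, version 1.17.8. Plots were made in Python 3.11.15 with matplotlib 3.10.9.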

Additional observations from a re-analysis of the deposited data

Results flagged for a closer look

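Of 32 groups of values examined for a sample far from the others, 2 had one, where chance gives about 1 in 20. The Lck level of control replicate 4 was 9.37, against 4.06 to 5.25 in the other 4 control arrays with a value, and its spot was not marked by the image software. The skeletal muscle marker mean of ACE replicate 1 was 9.80, against 6.68 to 7.13 in the other ACE arrays, while control replicate 1 had 10.61.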

How the results depend on the processing

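The Lyn difference of 0.48 kept its direction in every alternative that gave a value. It was 0.17 with normexp background correction, 1.12 in the deposited table and 1.1 with outlier spots kept, where the spot of ACE replicate 4 enters, and 0.43 to 0.57 when each replicate was left out in turn. With outlier spots kept and in the deposited table, 1 member (Lyn) moved the same way in all 6 pairs, in place of 0. The other 6 filtered members moved by less than the spread of their pairs in all 88 alternatives run, although Src (without replicate 1) and Fgr (without replicate 4) then had an unadjusted limma p of 0.0383 and 0.0337. Of the members other than Lyn, 0 passed the adjusted threshold in any alternative. Without the replicate block, the signalling list had 0 probes higher and 0 lower at an unadjusted p of 0.05 (44 and 37 over all probes), and Lyn differed by 0.50. The random block gave 15 higher and 8 lower (1852 and 2137 over all probes), and 5 probes of the whole array past the adjusted threshold. The 75th percentile shift gave 6 higher and 13 lower (829 and 3376 over all), and leaving out each replicate 8 to 15 higher and 4 to 7 lower, against 1162 to 1662 and 1648 to 2569 over all (8 higher without replicate 2, 7 lower without replicate 1). The cause of these shifts was not tested. A filter on signal above background on all 12 arrays removed Lyn, Lck and Blk. The signed-rank test cannot pass 0.05 with 5 pairs, and the microglia relation was not run with 5 arrays. Dim probes such as those of Lyn, Lck and Blk are limited by their signal over background.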
